A study of Mus musculus with 9 samples.

Results

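The cytosolic ribosomal protein genes were followed in the midbrain of mouse fetuses at E13.5 that lacked Gpr161 in the Wnt1 lineage or served as controls. Members were the rows of the deposited table whose symbol is Rpl or Rps with a number (a, l, x or 1 may follow), together with Rplp0, Rplp1, Rplp2 and Rpsa. Symbols of pseudogenes ending in -ps were left out. The rule gave 80 genes among 21356 distinct symbols, each with 1 row. By name 49 belong to the large and 31 to the small subunit, and 71 are core genes and 9 are paralogs, whose symbols end in l or l1. Of these, 76 passed the filter on low values and were tested among 14029 genes: 42 large subunit core genes, 29 small subunit core genes and 5 paralogs. Rpl23, Rpl27, Rpl34, Rpl37 and Rps6 were not analysed here.

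The table held 9 libraries, 3 per genotype, from midbrain tissue of C57BL/6 fetuses. The floxed control (Gpr161f/f) carried no Cre. The Cre control (Gpr161f/+;Wnt1-Cre) had 1 floxed allele and the Wnt1-Cre transgene. The cKO (f/f;Wnt1-Cre, with the gene spelled Gpt161 in the sample titles) had both floxed alleles and the transgene. The transgene deletes the floxed exons in cells with a history of Wnt1 expression, such as dorsal midbrain neuroectoderm and neural crest, so other cells of the dissected tissue keep the gene. It also carries Wnt1 sequence of its own, so the floxed control lacks both Cre and that sequence. Nothing in the labels says whether fetuses shared a litter, and p-values measure the spread between these samples.

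A ribosome has a small subunit, which reads the mRNA, and a large subunit, which joins amino acids, and each holds its own set of ribosomal proteins around ribosomal RNA. Ribosomal protein mRNAs are among the most abundant in any cell. Many start with a C and a run of pyrimidines, the terminal oligopyrimidine (TOP) tract, through which mTORC1 and Larp1 control their translation together. Paralogs are related copies that can replace a core protein in some tissues or act outside the ribosome. Growing and dividing cells, neural progenitors of the embryonic brain among them, make many ribosomes.

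The RefSeq promoters of GRCm38.p6, which held 60 of the 80 genes, were searched for the TOP tract. A TOP tract was read as a C within 5 bases of the annotated start followed by at least 5 pyrimidines (C or T), on the strand of the gene. It was present for 25 of these 60 genes (41.7%), against 11.9% of all 27025 genes in the promoter table. Counted by window, it was in 25 of 71 windows of members (35.2%) and in 10.2% of 32851 windows in all. Among core genes it was present for 13 of 30 of the large subunit and 10 of 22 of the small subunit. A match is a description of these letters, and no match says only that they are not in this window. The windows of 30 bases below run from 12 before the start to 18 from it, with the tract in capitals, and are shown for members described in the results and for Rpl13a, a further member with a long tract.

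Rpl13a, chr7:45128728-45128757, minus strand: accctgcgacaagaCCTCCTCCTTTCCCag
Rpl28, chr7:4792953-4792982, plus strand: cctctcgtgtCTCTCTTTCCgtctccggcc
Rpl14, chr9:120571505-120571534, plus strand: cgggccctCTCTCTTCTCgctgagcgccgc
Rpl27a, chr7:109519183-109519212, plus strand: ttcgtgagCTCCTCCCTTTTCCCTTTCTgc
Rpl35, chr2:39005114-39005143, minus strand: ccccgccCTTTCCTCTTTCTCTCgaaccag
Rpl38, chr11:114668568-114668597, plus strand: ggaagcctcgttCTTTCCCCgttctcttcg
Rpl22l1, chr3:28805496-28805525, plus strand: cggcgcaagcccgttCTCTTCCCacggctg
Rps2, chr17:24720051-24720080, plus strand: cagtcgagatctcgcgCTTCTTggagcact
Rps26, chr10:128626489-128626518, minus strand: gggcaagccgccggatCCTCTTTCgagtct
Rps27, chr3:90213631-90213660, minus strand: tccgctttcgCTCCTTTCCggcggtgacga

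For contrast, the windows of 3 members without a tract are given below. Whether a tract goes with the size of the difference in the cKO was not tested.

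Rpl5, chr5:107900516-107900545, plus strand: cacgtcgcttgcgtgctggtggtgctacat
Rps4x, chrX:102189374-102189403, minus strand: aggctgggcggagcaacccaggctccagcg
Rplp0, chr5:115559455-115559484, plus strand: ttcgggtttcgaggaccgcctggttctcct

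The ribosomal protein genes moved together across the 9 libraries. The value of each gene is given on a log2 scale that the authors normalized between libraries. The median over the 76 tested members was 13.64, 13.64 and 13.64 in floxed control replicates 1, 2 and 3. It was 13.97, 13.64 and 13.68 in the Cre controls, and 13.91, 13.84 and 13.90 in the cKO. The floxed controls lay low, the cKO lay high, and Cre control replicate 1 lay as high as the cKO while the other two Cre controls lay near the floxed controls. After conversion from log2 to linear values, all 80 members took 3.84% to 3.95% of the sum of all rows in the floxed controls and 4.55% to 4.75% in the cKO. In the Cre controls the share was 4.91%, 4.01% and 4.06%.

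**Figure D1:**
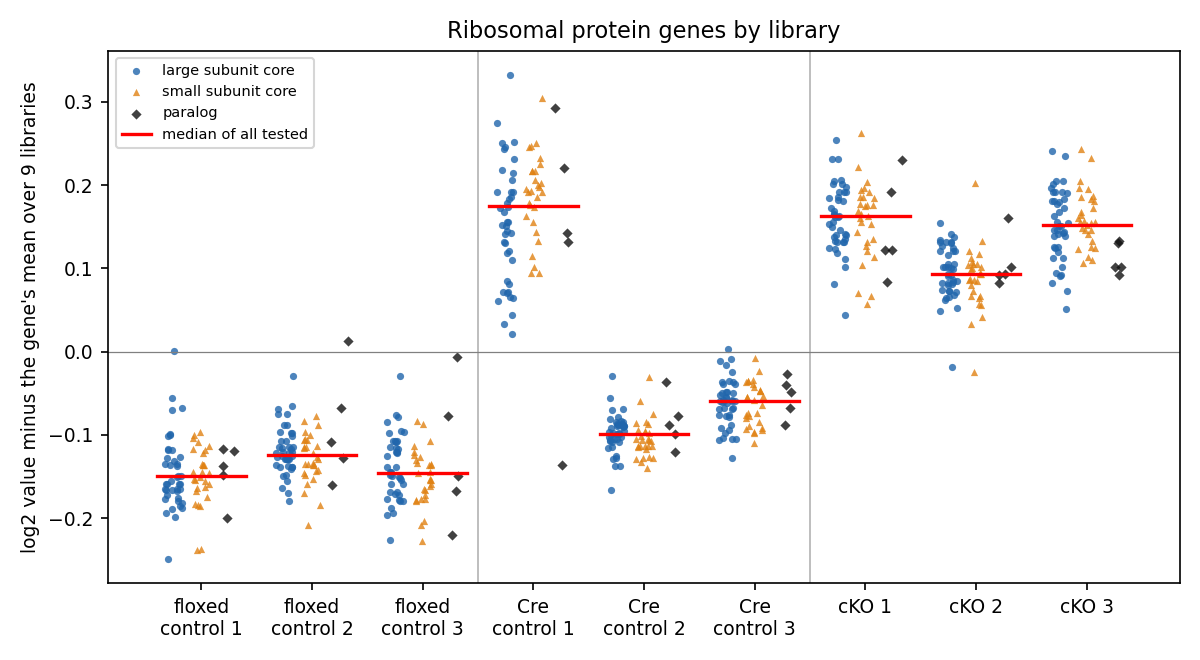
Each point is 1 of the 76 tested ribosomal protein genes, plotted as its log2 value in a library minus its own mean over the 9 libraries, by subunit and class, and the red bar is the median of all 76. The medians lie at -0.15, -0.13 and -0.15 in the floxed controls, 0.17, -0.10 and -0.06 in the Cre controls, and 0.16, 0.10 and 0.15 in the cKO.

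Cre control replicate 1 stood apart from its group, and results against the Cre control are therefore given with and without it. It exceeded both other Cre controls for 75 of the 76 members (36.7% of all genes tested). It was the highest of the 9 libraries for 40 members (13.9% of all genes). Its excess over the mean of the other two had a median of 0.25 on the log2 scale over members and of -0.02 over all genes. The largest excess was 0.45, for Rpl41, and the exception was Rps4l, which lay 0.11 below. Singling out this library rests on the values of these same members. Leaving it out therefore raises their difference between cKO and Cre control by construction, except for Rps4l. Within groups the median SD of a member was 0.022 for the floxed, 0.15 for the Cre and 0.040 for the cKO libraries, while over all genes it was 0.054, 0.079 and 0.056.

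The cKO was compared with the floxed control to ask how the set differed from fetuses with intact Gpr161. Of the 76 members, 70 were higher in the cKO and 0 lower at an adjusted p under 0.05 (limma, Benjamini-Hochberg over all genes). Over all genes tested 19.5% were higher by this rule. All 76 had a positive difference, as had 52.4% of all genes, also with libraries centred on their medians, with quantile normalization and with a correction for GC content and transcript length. The median log2 fold change was 0.27, a fold of 1.21, and over all genes it was 0.01. The range was 0.05 to 0.46, and 0 members passed with a fold change over 1.5 (1.34% of all genes were higher by that rule). In a test against a fold change of 1.1, 13 members passed (5.57% of all genes). The 3 cKO values lay above the 3 floxed control values for 75 members (29.9% of all genes), the exception being Rpl5. With that correction the median was 0.18 and 54 members passed (19% of all genes were higher). The tested members have a median transcript of 756 bases against 2960 for all tested genes. Without cKO replicate 1 the count was 43 (13.1% of all genes), and it was 46 without cKO replicate 3 (15.8%), floxed control replicate 1 (13.8%) or floxed control replicate 3 (13.8%), so the share of all genes that passed was lower as well.

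**Figure D2:**
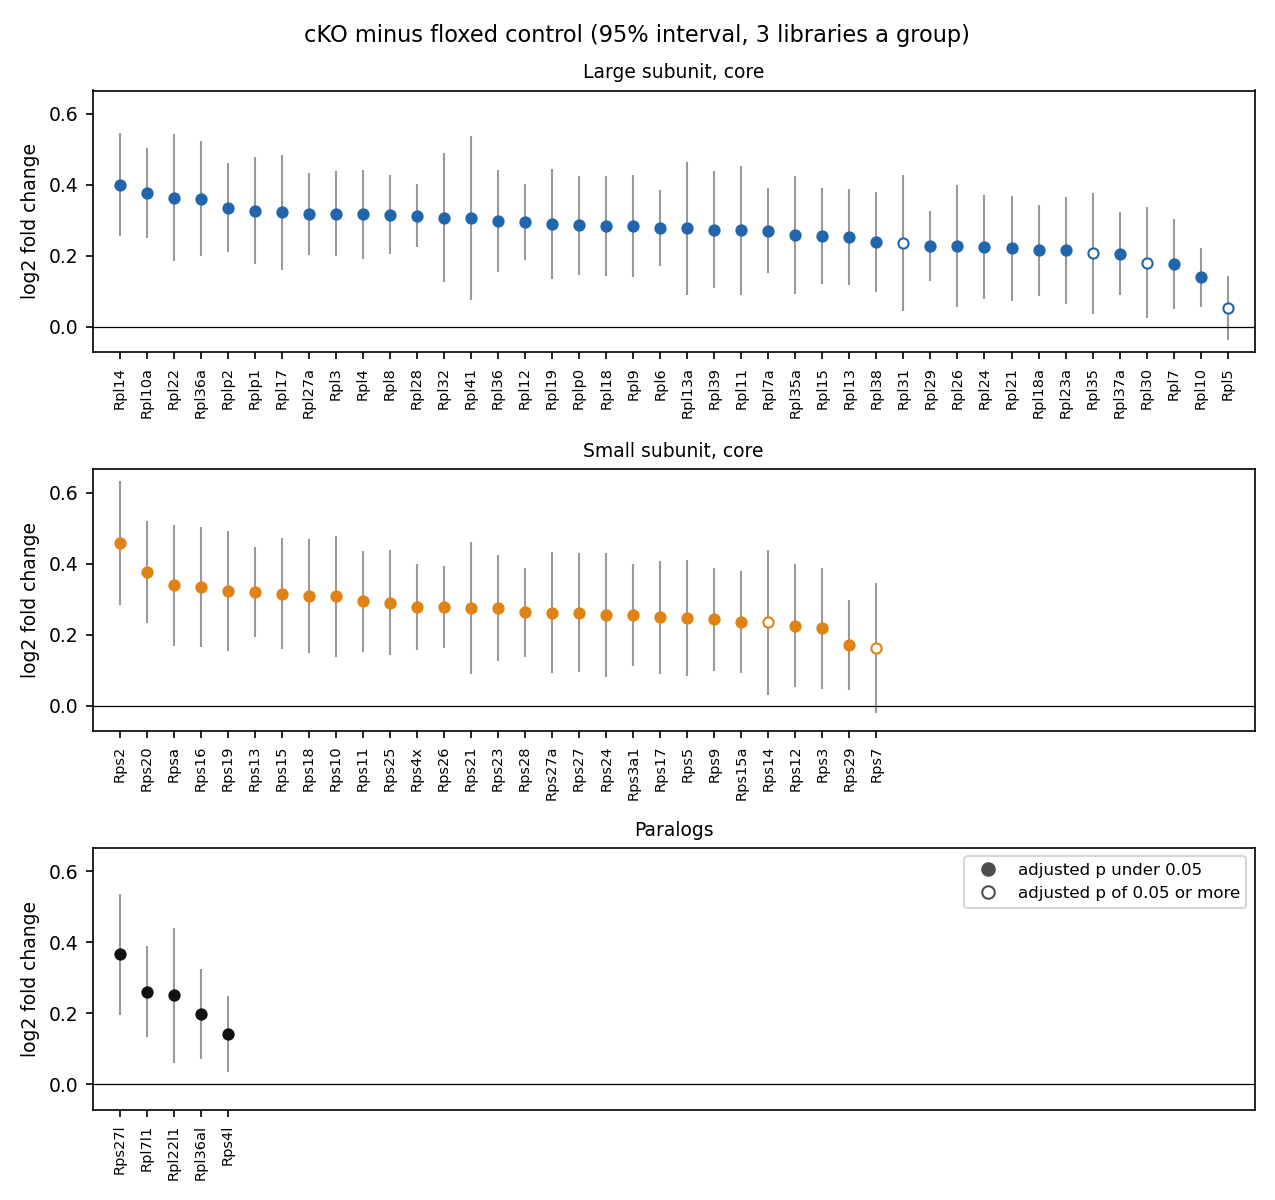
Log2 fold change of the cKO over the floxed control for each tested member (vertical axis), ordered by size within the large subunit, the small subunit and the paralogs, with the 95% interval from limma. Filled points passed at an adjusted p under 0.05, and the 6 open points, Rpl31, Rpl35, Rpl30, Rpl5, Rps14 and Rps7, did not.

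In the large subunit core, 38 of 42 members rose in the cKO. Rpl28 measured 13.07, 13.08 and 13.08 in the floxed controls, 13.29, 13.20 and 13.18 with Cre alone and 13.42, 13.36 and 13.38 in the cKO (log2). The groups did not overlap, and the difference was 0.31 ± 0.040 (SE, log2, adjusted p = 6.73e-04), the smallest adjusted p of the set. In floxed control, Cre control and cKO libraries, Rpl10a was at 12.74, 12.80 and 12.69, at 12.98, 12.79 and 12.88, and at 13.17, 13.04 and 13.15 in turn (log2). Rpl10a, a protein of the stalk at which spent tRNA leaves the ribosome, was thus lower in every control than in any cKO library. Its difference from the floxed control was 0.38 ± 0.057 (SE, log2, adjusted p = 0.00128). The log2 value of Rpl8 was 14.25, 14.28 and 14.25 in the floxed controls, 14.48, 14.32 and 14.36 in the Cre controls and 14.61, 14.53 and 14.60 in the cKO. Rpl8 lies beside the peptidyl transferase centre, and its difference of 0.32 ± 0.050 (SE, log2, adjusted p = 0.00145) was close to that of Rpl28. Rpl14 measured 13.66, 13.73 and 13.73 in the floxed controls, 14.06, 13.82 and 13.85 with Cre alone and 14.14, 14.04 and 14.15 in the cKO (log2). Here Cre control replicate 1 exceeded the lowest cKO value. The difference from the floxed control was 0.40 ± 0.065 (SE, log2, adjusted p = 0.00163), the highest of the large subunit.

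Other large subunit proteins with known roles are given by group. Rplp0, which anchors the acidic stalk that recruits elongation factors, rose by 0.29 (adjusted p = 0.00628). Its stalk partners Rplp1 and Rplp2 were 0.33 and 0.34 higher (adjusted p = 0.00461 and 0.00187). Rpl38, whose loss in the mouse mutant Tail short alters skeletal patterning, rose by 0.24 (adjusted p = 0.0144). In floxed control, Cre control and cKO libraries, Rpl11 was at 14.09, 14.14 and 14.11, at 14.50, 14.15 and 14.15, and at 14.41, 14.36 and 14.38 in turn (log2). Rpl11, which with Rpl5 and the 5S ribosomal RNA binds Mdm2 when ribosome assembly is disturbed, was higher in the cKO by 0.27 ± 0.081 (SE, log2, adjusted p = 0.0248). Its value in Cre control replicate 1 was the highest of the 9 libraries. Rpl10, a late assembly protein near the tRNA sites, had the smallest difference of the core genes that passed, 0.14 (adjusted p = 0.0155).

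In the small subunit core, 27 of 29 members rose. The log2 value of Rps2 was 14.93, 14.96 and 14.94 in the floxed controls, 15.37, 15.04 and 15.07 in the Cre controls and 15.43, 15.37 and 15.40 in the cKO. Rps2, at the entry of the mRNA channel, had the largest difference of the whole set against the floxed control, 0.46 ± 0.078 (SE, log2, adjusted p = 0.00204). The 3 cKO values lay far above the floxed controls, and Cre control replicate 1 equalled the lowest of them to 2 decimals. Rps20 averaged 13.18 ± 0.051 (SD, n = 3) in floxed controls, 13.36 ± 0.14 in Cre controls and 13.56 ± 0.053 in the cKO, with a difference of 0.38 ± 0.065 (SE, log2, adjusted p = 0.00211) between cKO and floxed control. Rps13 rose by 0.32 (adjusted p = 0.00254). Rps26, which contacts the mRNA at the exit side, rose by 0.28 (adjusted p = 0.00299). Rps19, the protein most often mutated in Diamond-Blackfan anaemia, rose by 0.32 (adjusted p = 0.00834). Rpsa, also known as the laminin receptor, rose by 0.34 (adjusted p = 0.00701), and the X-linked Rps4x by 0.28 (adjusted p = 0.00357).

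Of the 6 members that did not pass against the floxed control, Rpl5 stood apart from the other 5. Rpl5 measured 11.03, 11.00 and 11.00 in the floxed controls, 11.05, 10.96 and 11.02 with Cre alone and 11.11, 11.01 and 11.08 in the cKO (log2). For Rpl5 the groups overlapped, with a difference of 0.05 ± 0.041 (SE, log2, adjusted p = 0.332) and a 95% interval of -0.04 to 0.14. In floxed control, Cre control and cKO libraries, Rps14 was at 14.48, 14.52 and 14.46, at 14.93, 14.52 and 14.55, and at 14.73, 14.69 and 14.75 in turn (log2). Rps14, a gene lost in a human deletion syndrome with anaemia, had a larger difference, 0.23 ± 0.091 (SE, log2, adjusted p = 0.0669), and no overlap between cKO and floxed control. Its Cre control SD was 0.23 against 0.027 and 0.033 in the other groups, and the fit uses 1 spread for the 3 groups. The same held for Rpl31 at 0.23 ± 0.086 (SE, log2, adjusted p = 0.0536), for Rpl35 at 0.21 ± 0.077 (SE, log2, adjusted p = 0.0554) and for Rpl30 at 0.18 ± 0.070 (SE, log2, adjusted p = 0.0640). Rps7 was at 0.16 ± 0.082 (SE, log2, adjusted p = 0.141), also without overlap. In the fit of only the 6 cKO and floxed control libraries, 75 of the 76 members passed (22.8% of all genes were higher).

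The comparison with the Cre control holds the transgene constant and differs in the second floxed allele. All 76 members again had a positive difference, as had 53.7% of all genes, with a median log2 fold change of 0.13. With the correction for GC content and transcript length 74 were positive, and with quantile normalization 73, with Rps14 and Rps7 turning negative under both. The first of these gave a median of 0.08. Only 7 members passed, against 4.86% of all genes higher by this rule, and 27 had an unadjusted p under 0.05, each of them higher. By the unadjusted limit 15.4% of all genes were higher, and 4109 of the 14029 genes passed in either direction. The 7 were Rpl28, Rpl10a, Rpl8, Rpl27a, Rpl3, Rpl4 and the paralog Rps4l. The cKO values lay above all 3 Cre control values for 16 members (17.8% of all genes). Without Cre control replicate 1, 73 of 76 members passed (10.9% of all genes were higher), with a median of 0.21. Those that did not were Rpl5, Rps21 and Rps4l. Because that library was singled out by its high values for these members, this count is no separate support for a difference. Leaving out any other single library of these groups gave 0 or 1 member, with 0.998% to 2.59% of all genes higher. With library weights, an alternative chosen after seeing the data that gave Cre control replicate 1 a weight of 0.21, 71 passed (14.7% of all genes were higher).

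**Figure D3:**
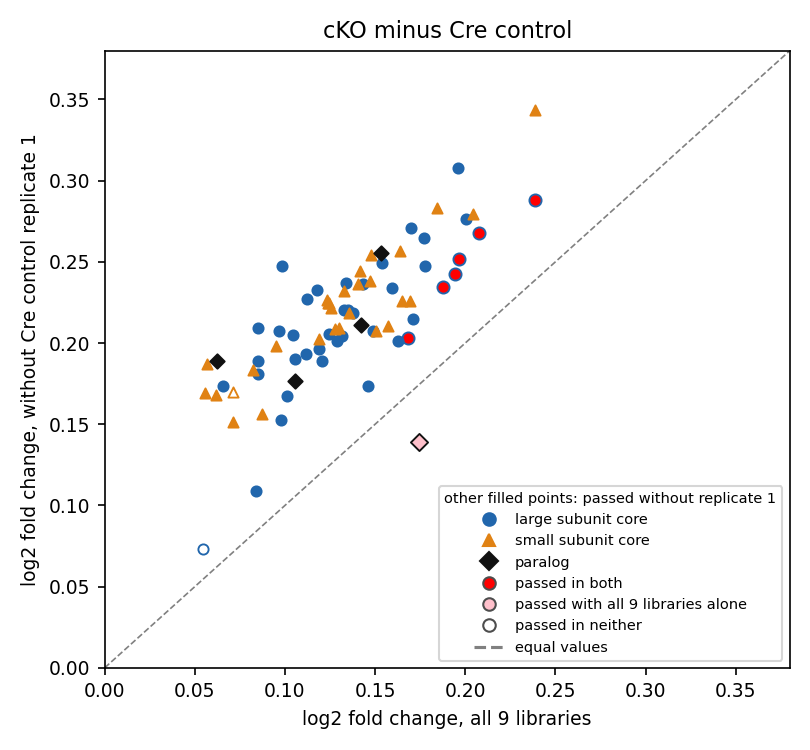
Each point is a tested member, with its log2 fold change of the cKO over the Cre control in the fit of all 9 libraries (horizontal) and without Cre control replicate 1 (vertical), and the dashed line marks equal values. Points lie above the line for 75 of the 76 members, because replicate 1 lay above the mean of the other Cre controls for them. Rps4l is the exception.

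Rpl28 was higher in the cKO than in the Cre control by 0.17 ± 0.040 (SE, log2, adjusted p = 0.0321), and by 0.20 (adjusted p = 0.00330) without Cre control replicate 1. Rpl10a was higher in the cKO than in the Cre control by 0.24 ± 0.057 (SE, log2, adjusted p = 0.0329), and by 0.29 (adjusted p = 0.00575) without Cre control replicate 1. Rpl8 was higher in the cKO than in the Cre control by 0.19 ± 0.050 (SE, log2, adjusted p = 0.0437), and by 0.23 (adjusted p = 0.00369) without Cre control replicate 1. These 3 had cKO values above all Cre controls, replicate 1 included. Rpl3 and Rpl4, which reach from the surface of the large subunit to its catalytic centre and exit tunnel, are next. Rpl3 was higher by 0.20 (adjusted p = 0.0478) and Rpl4 by 0.21 (adjusted p = 0.0478), and by 0.25 and 0.27 without the replicate (adjusted p = 0.00293 and 0.00277). The log2 value of Rpl27a was 12.35, 12.42 and 12.44 in the floxed controls, 12.62, 12.47 and 12.48 in the Cre controls and 12.78, 12.65 and 12.73 in the cKO. Rpl27a was higher in the cKO than in the Cre control by 0.19 ± 0.052 (SE, log2, adjusted p = 0.0445), and by 0.24 (adjusted p = 0.00603) without Cre control replicate 1.

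Among the small subunit core, 0 of 29 passed with all libraries, 8 were higher at an unadjusted p under 0.05 (15.4% of all genes), and 28 passed without Cre control replicate 1 (10.9% of all genes). Rps2 was higher in the cKO than in the Cre control by 0.24 ± 0.078 (SE, log2, adjusted p = 0.0790), and by 0.34 (adjusted p = 0.00144) without Cre control replicate 1. Rps20 was higher in the cKO than in the Cre control by 0.20 ± 0.065 (SE, log2, adjusted p = 0.0726), and by 0.28 (adjusted p = 0.00450) without Cre control replicate 1. Rps4x was higher in the cKO than in the Cre control by 0.17 ± 0.054 (SE, log2, adjusted p = 0.0739), and by 0.23 (adjusted p = 0.00436) without Cre control replicate 1. For each of the 3 the adjusted p moved from above to below 0.05 when that library was left out. Rps7 was higher in the cKO than in the Cre control by 0.06 ± 0.082 (SE, log2, adjusted p = 0.686), and by 0.17 (adjusted p = 0.00856) without Cre control replicate 1. Rps7 and Rpl5 had the lowest differences of the set in this comparison. Rpl5 was higher by 0.05 (adjusted p = 0.395), with a 95% interval of -0.04 to 0.15, and by 0.07 without the replicate (adjusted p = 0.220).

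When the 2 kinds of control were compared with each other, 0 members passed by limma, and 0.0499% of all genes were higher by that rule. At an unadjusted p under 0.05, 31 members were higher, as were 8.77% of all genes, and 2451 of the 14029 genes passed in either direction. The difference was positive for 74 members, as for 49.6% of all genes, and negative for Rpl5 and Rps4l. The median was 0.14, and it was 0.06 without Cre control replicate 1, when again 0 passed (0.371% of all genes were higher), 13 were higher at an unadjusted p under 0.05 (9.16% of all genes; 2105 passed in either direction) and 72 were positive. Library weights also gave 0 members, with 23 higher at an unadjusted p under 0.05 (11.6% of all genes). The Cre control values lay above all floxed control values for 53 members (10.7% of all genes). The largest differences were those of Rps2, 0.22 (adjusted p = 0.219), and Rps27l, 0.21 (adjusted p = 0.223). Without the replicate these were 0.12 (adjusted p = 0.187) and 0.11 (adjusted p = 0.283). The comparisons share libraries, and their values are given side by side without a test between them.

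Large and small subunit genes had medians near each other in every comparison, each given as a description. Against the floxed control the cKO medians were 0.28 for the 42 large and 0.27 for the 29 small subunit core genes. Against the Cre control they were 0.13 and 0.13, and without Cre control replicate 1 they were 0.21 and 0.22. Between the controls they were 0.13 and 0.15. Within each library, the median deviation of the large subunit minus that of the small lay between -0.04, in Cre control replicate 1, and 0.01, in Cre control replicate 2.

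The paralogs split by level. Rpl3l, known from striated muscle, was at -0.58 to -0.56 on the log2 scale in every library. Rpl10l, expressed in testis, and Rpl32l, annotated as a pseudogene, were at -1.80 to -1.79. Rpl39l, also known from testis, was at 3.32 to 3.49, below the minimum for testing, which lay between 4.73 and 4.78. None of these 4 was tested, and in these low rows the spread is shrunk by the transformation. The other 5 paralogs were measured in every library. Per kilobase of transcript, Rpl36al reached 54.3% to 63.4% of its X-linked partner Rpl36a, and Rpl22l1 reached 26.6% to 30.2% of Rpl22. Rps27l reached 11.4% to 12.9% of Rps27, Rps4l 6.53% to 8.38% of Rps4x, and Rpl7l1 5.53% to 6.14% of Rpl7. The order of the 5 ratios was the same in all 9 libraries.

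**Figure D4:**
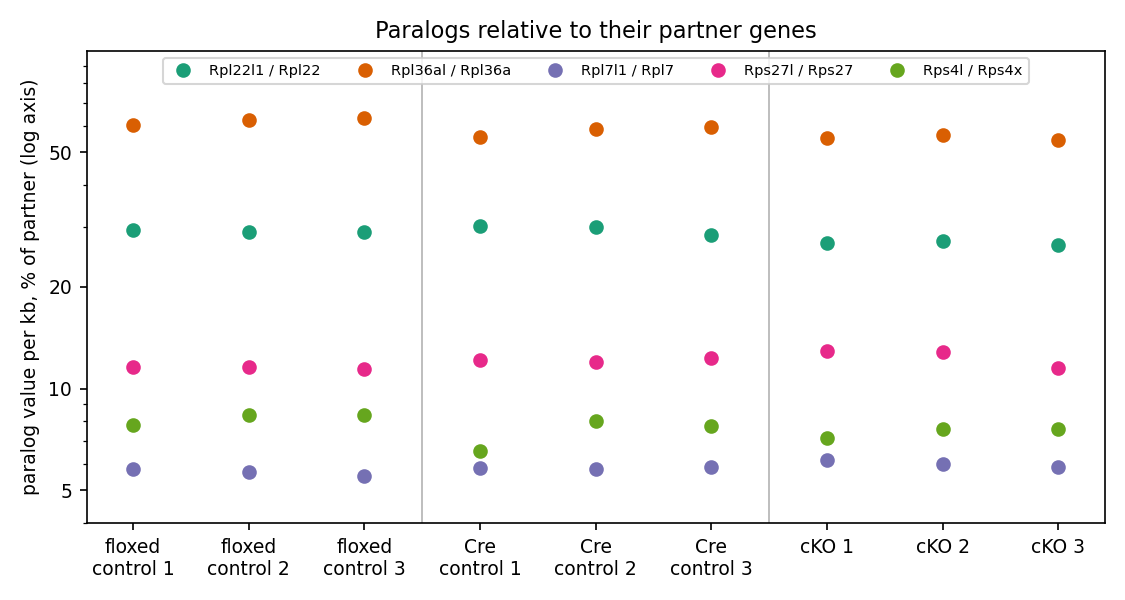
The linear value per kilobase of each tested paralog, as a percent of that of its partner (log axis), in each of the 9 libraries. Rpl36al lies at 60.2% to 63.4% of Rpl36a in the floxed controls and at 54.3% to 56.4% in the cKO.

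All 5 tested paralogs rose in the cKO against the floxed control. Rps27l measured 10.77, 10.81 and 10.75 in the floxed controls, 11.19, 10.85 and 10.93 with Cre alone and 11.20, 11.13 and 11.10 in the cKO (log2). Rps27l, a target of p53, had the largest difference of them, 0.37 ± 0.077 (SE, log2, adjusted p = 0.00501), beside 0.26 (adjusted p = 0.0207) for Rps27. In floxed control, Cre control and cKO libraries, Rpl22l1 was at 11.61, 11.62 and 11.58, at 12.04, 11.66 and 11.66, and at 11.87, 11.84 and 11.85 in turn (log2). Rpl22l1, which Rpl22 is known to repress, rose by 0.25 (adjusted p = 0.0424), and Rpl22 by 0.36 (adjusted p = 0.00631). Rpl36al rose by 0.20 (adjusted p = 0.0207) and Rpl36a by 0.36 (adjusted p = 0.00417). Rpl7l1, a relative of a yeast assembly factor, rose by 0.26 (adjusted p = 0.00635) and Rpl7 by 0.18 (adjusted p = 0.0322). The log2 value of Rps4l was 10.30, 10.43 and 10.41 in the floxed controls, 10.28, 10.38 and 10.39 in the Cre controls and 10.50, 10.51 and 10.55 in the cKO. Rps4l, which the annotation lists as a pseudogene, rose by 0.14 (adjusted p = 0.0388). It was the member that in Cre control replicate 1 lay below the rest of its group, with the lowest value of the 9 libraries.

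Measured against the median of the core genes in each library, 0 of the 5 paralogs differed between groups in any of the 3 comparisons by limma, and 0 had an unadjusted p under 0.05. By this rule 61.1% of all genes differed between cKO and floxed control, 0.87% between cKO and Cre control and 0.0143% between the controls, in either direction. Without Cre control replicate 1 the paralogs also gave 0, where 57.3% of all genes differed from the cKO and 0.114% between the controls. Subtracting the core median shifts every gene by the difference of the core itself. Between cKO and floxed control the median over all genes became -0.27, with 257 genes higher and 8314 lower. These shares over all genes are therefore not a background rate for the paralogs. The relative difference of Rps27l between cKO and floxed control was 0.09, with a 95% interval of -0.06 to 0.24. That of Rps4l was -0.14 (-0.35 to 0.08), and that of Rpl36al was -0.08 (-0.22 to 0.06). Rpl22l1 and Rpl7l1 were at -0.03 (-0.18 to 0.12) and -0.02 (-0.16 to 0.12). These intervals are as wide as the difference of a typical core gene, so missing the limit does not show that the paralogs moved like the core. As a share of the partner, Rpl22l1 was 29.0% to 29.4% in the floxed controls, 28.4% to 30.2% in the Cre controls and 26.6% to 27.4% in the cKO. Rpl36al was at 60.2% to 63.4%, 55.5% to 59.6% and 54.3% to 56.4%. Rps4l was at 7.81% to 8.38%, 6.53% to 8.05% and 7.15% to 7.62% of Rps4x. These 3 ratios were lower in every cKO library than in any floxed control. The ratio of Rpl7l1 lay the other way, at 5.53% to 5.77% in the floxed controls, 5.77% to 5.85% in the Cre controls and 5.85% to 6.14% in the cKO. The ratio of Rps27l overlapped, at 11.4% to 11.6% in the floxed controls and 11.5% to 12.9% in the cKO. For each ratio, 3 libraries against 3 cannot give an exact permutation p under 0.10. The share of other gene pairs whose ratios do not overlap was not computed. For single genes, the cKO lay above the floxed control without overlap for 29.9% of all genes.

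Ribosomal proteins whose names fall outside the rule rose as well. Fau, which is made fused to a ubiquitin-like protein, rose in the cKO against the floxed control by 0.29 (adjusted p = 0.00518). Rack1, a scaffold on the small subunit, rose by 0.30 (adjusted p = 0.00637). Against the Cre control neither passed, and both passed without Cre control replicate 1. The lists of related genes were written from general knowledge. Of 38 translation factors and other genes known for TOP mRNAs, 25 rose and 1 fell, with a median of 0.19, where 19.5% of all genes rose and 18.8% fell. Eef1d, a subunit of the exchange factor for elongation, rose by 0.45 (adjusted p = 3.73e-04), and Pabpc1, which binds poly-A tails, by 0.32 (adjusted p = 5.12e-04). Eif4a2, the isoform of the helicase eIF4A that is abundant in neurons, fell by 0.29 on the log2 scale (adjusted p = 0.00133). Some genes of the list are not translation factors, and of these Npm1, a nucleolar chaperone, rose by 0.32 (adjusted p = 0.00251).

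Of 28 genes of ribosome biogenesis, 18 rose and 0 fell, with a median of 0.21, where 19.5% of all genes rose and 18.8% fell. Rrs1, a factor for large subunit assembly, rose by 0.32 (adjusted p = 8.00e-04) and Fbl, the methyltransferase of box C/D snoRNPs, by 0.29 (adjusted p = 0.00148). Of 78 mitochondrial ribosomal proteins, which form a separate ribosome, 34 rose and 0 fell, with a median of 0.13. Mrps27 rose by 0.23 (adjusted p = 0.00233) and Mrpl44 by 0.23 (adjusted p = 0.00273). Of 22 regulators of ribosomal protein synthesis, 1 rose and 3 fell, smaller shares than over all genes, with a median of -0.02. Eif4ebp1, the mTORC1 target that holds back eIF4E, rose by 0.61 (adjusted p = 0.00214). Mxd1, an antagonist of Myc, fell by 0.22 (adjusted p = 0.0120), and Mnt and Tsc1, which also act against Myc and mTORC1, were the other two. The transcripts of Myc and Mtor differed by -0.02 (adjusted p = 0.860) and -0.13 (adjusted p = 0.139). The share of promoter windows with a TOP tract was 16.7% for the translation list, 0% for biogenesis and 5.3% for mitochondrial ribosomal proteins. Against the Cre control, where 4.86% of all genes rose, fewer passed in these lists. In the translation list 10 of 38 rose and 1 fell, in biogenesis 7 of 28 rose and among mitochondrial ribosomal proteins 4 of 78 rose. Without Cre control replicate 1, where 10.9% of all genes rose, these counts were 27, 16 and 28. Of the regulators 0 passed against the Cre control by limma, 2 had an unadjusted p under 0.05, and 2 fell without the replicate. A list of 10 snoRNA host RNAs was not analysed here in the expression table.

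**Figure D5:**
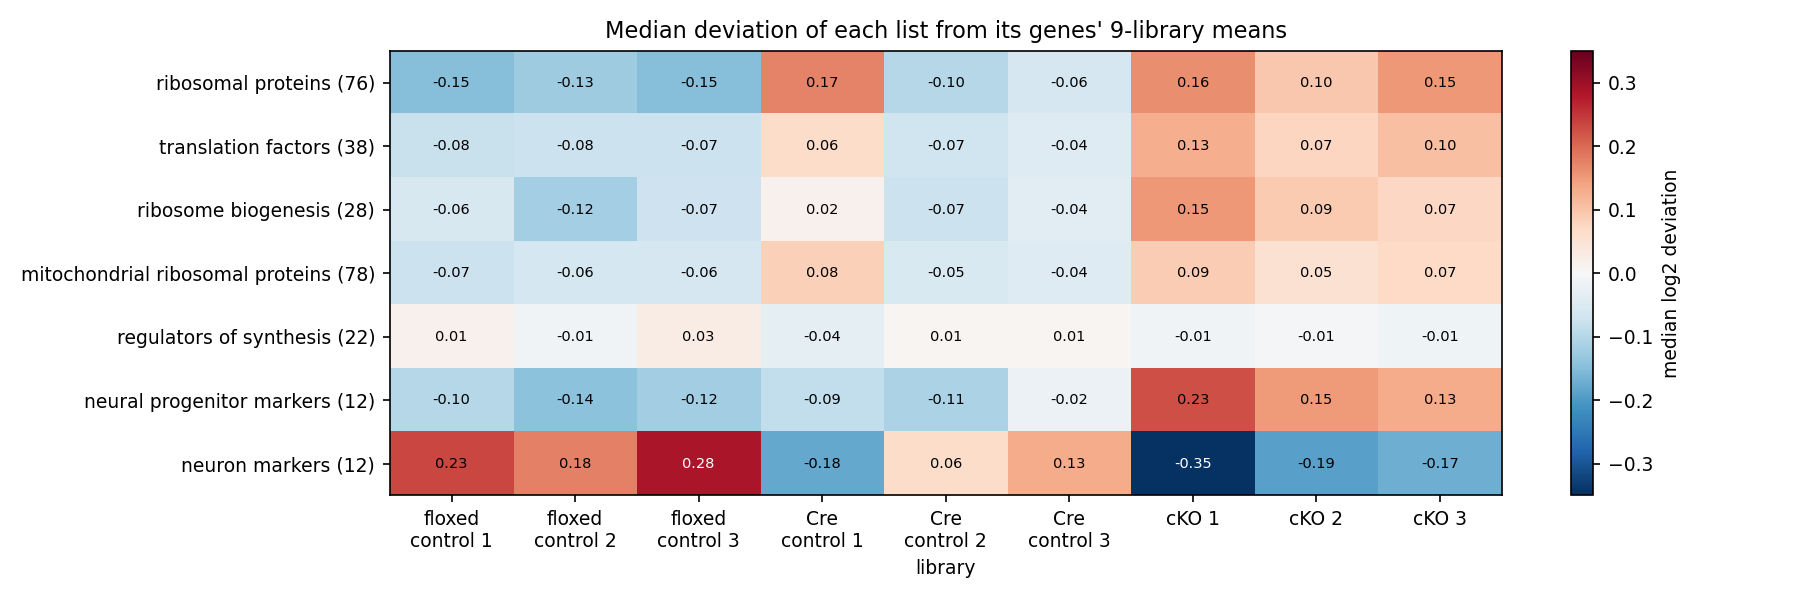
Median log2 deviation of the tested genes of each list (number in brackets) from their own means over the 9 libraries, by library (columns), with the value written in each cell and blue for low and red for high. Ribosomal proteins reach 0.17 in Cre control replicate 1, where ribosome biogenesis is at 0.02 and neural progenitor markers are at -0.09.

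The lists did not share the level of Cre control replicate 1 to the same extent. Its median deviation was 0.17 for ribosomal proteins, 0.06 for the translation list, 0.08 for mitochondrial ribosomal proteins, 0.02 for ribosome biogenesis and -0.04 for regulators. In the cKO libraries the same medians were 0.10 to 0.16, 0.07 to 0.13, 0.05 to 0.09, 0.07 to 0.15 and -0.015 to -0.007. No test was made between lists.

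Markers of some cell types moved with the groups, and their part in the result was not tested. In bulk tissue, a change in the number of cells of a type and a change in RNA per cell cannot be told apart. All 9 midbrain markers, among them En1 and Otx2, passed the filter, while Emx1 of the forebrain and Egr2 of the hindbrain did not, and no marker was at 0 in all libraries. Of 12 neuron markers, 12 fell in the cKO against the floxed control (18.8% of all genes), with a median of -0.51. Their summed linear values were 156417 to 169676 in the floxed controls, 123227 to 151202 in the Cre controls and 109228 to 122819 in the cKO. The lowest of the Cre controls was replicate 1. Of 12 neural progenitor markers, 8 rose and 0 fell (19.5% and 18.8% of all genes), with a median of 0.30. Their sums were 103049 to 108106, 105317 to 112957 and 119722 to 127170, and by this sum replicate 1 was again the Cre control nearest to the cKO, though by the median deviation it was not. Against the Cre control 4 neuron markers fell (681 of all 14029 genes) and 4 progenitor markers rose (4.86% of all genes). Of 10 erythroid markers, 7 rose (19.5% of all genes), and 5 against the Cre control (4.86%). Their sums were 153092 to 260331, 184200 to 211847 and 239028 to 461389. Of 9 mesenchyme markers, 8 rose (19.5% of all genes), with sums of 30250 to 54942, 38472 to 63677 and 64884 to 67475. Here replicate 1 was the Cre control farthest from the cKO. Against the Cre control 0 of the 9 passed by limma, with 2 at an unadjusted p under 0.05 (4109 of all 14029 genes).

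The likeness of members to each other was described by Pearson's correlation with the median of the core genes over the 9 libraries, in which core genes are themselves part. The median r over the 76 members was 0.98, and 58 were above 0.95, as were 272 of all 14029 genes (1.94%). The lowest were Rps4l at 0.39 and Rpl5 at 0.71. The most alike of all other genes were Gm15501 (r = 0.99), LOC100862455 (0.99), Rfc4, a subunit of the clamp loader for DNA replication (0.99), Ndufa12, of respiratory complex I (0.99), and Rpl37rt, a retrotransposed copy of Rpl37 (0.99). All points share the same 9 libraries, and 3 groups of libraries set the range.

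Reads of ribosomal protein genes can be shared with processed pseudogenes. Between 2.6% and 98.7% of the 31-base words of a tested member's transcript occur in transcripts of other genes, with 49 of the 76 at or above 50%. Rps27 has 98.73%, shared most with Rps27rt, Rpl10 has 92.33%, Rps12 90.52% and Rpl10a 88.41%. Rpl8 has 9.99%. The levels of members with a high share are uncertain, since the division of shared reads between copies could differ from their origin. Gpr161 itself, in 1 value per gene that does not separate its exons, was 11.80, 11.74 and 11.78 in the floxed controls, 11.77, 11.91 and 11.96 in the Cre controls, and 11.74, 11.96 and 11.94 in the libraries labelled cKO, a difference of 0.11 (adjusted p = 0.223) between cKO and floxed control. The table holds no read counts, so the depth of the libraries is unknown, and the sums of linear values were 26605102 to 27491808 per library.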

How the data were processed

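Poly-A selected RNA from the midbrain of 9 C57BL/6 embryos at E13.5, 3 per genotype, was sequenced by the authors. They deposited 1 table of log2 values, which are scaled between libraries and have their spread reduced in weak rows. The transformation is not given in the sources used here. The submitters' processing notes name FastQC 0.10.1, kallisto 0.46.1, DESeq2 and mm10. The table holds no counts, so depth is unknown. Rows with a symbol that reached 1 cpm (on the values converted from log2) in 3 or more libraries entered, with the highest row per symbol (118 rows dropped), which left 14029 genes. A mean per genotype was fitted to all 9 libraries with limma 3.58.1 in R 4.3.3 (eBayes with a trend, two-sided), with Benjamini-Hochberg adjustment over all genes. The count test that had been set for count data could not be used. Tables were made with pandas 2.3.3 in Python 3.11.15. Transcript lengths, GC content and shared words came from the GENCODE annotation of GRCm38, 1 transcript per gene, and promoters from RefSeq. The fit was tested on simulated data.

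The members and lists were chosen with earlier results of these data known. Genes named with values were the 4 members with the smallest adjusted p per subunit against each control, the 2 highest and the 2 lowest differences in each comparison, the members not passing against the floxed control, every paralog and its partner, members with known roles outside the ribosome, and the 2 smallest adjusted p of each pathway list. Rpl3, Rpl4, Rpl10, Rpl41, Rplp1, Rplp2, Rps12, Rps21, Rpl13a, Rpl35 for its sequence, and the list genes Eif4a2, Npm1, Mnt, Tsc1, Myc and Mtor were added after their values were seen. The lists were midbrain, forebrain, hindbrain, neural progenitor, neuron, erythroid, endothelial, microglia, mesenchyme and neural crest glia markers, and the pathway lists of the report. Alternatives were the filter, the libraries in the fit, the replicate number as a block, the scaling, a correction for GC content and length, the variance trend, a test against a fold of 1.1, summed rows, each library left out, and library weights, the last chosen after seeing the data.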

Additional observations from a re-analysis of the deposited data

How the results depend on the processing

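The direction of the median difference of the 76 members, and of each subunit, was the same in the 3 comparisons under all alternatives run. Against the floxed control, 70 members passed in the fit reported, 13 when tested against a fold of 1.1, and 43 to 58 with 1 library left out. Of all 14029 genes, 2738, 781 and 1834 to 2468 were higher in these fits. The median of the members was 0.26 to 0.29 with 1 library left out. Against the Cre control, 7 members passed in the fit reported (682 of all 14029 genes were higher). With no filter on low values 1 passed (393 of 21356 genes). With only the 6 libraries compared 0 passed (225 genes), with libraries centred on their medians 3 (532) and with quantile normalization 2 (646). When tested against a fold of 1.1, 0 passed (39 genes), and with library weights 71 (2059). With 1 library left out 0 to 73 passed, where 140 to 1533 of all genes were higher. The causes of these values were not tested. Centring also moved the split of all genes in this comparison from 682 higher and 681 lower to 532 higher and 831 lower. Between the controls, the split of 7 higher and 1 lower became 12 and 4 with the GC and length correction and 7 and 0 with quantile normalization. Between the controls 0 members passed under any alternative. The replicate number as a block gave 73, 8 and 0 members in the 3 comparisons, where 2898, 846 and 8 of all genes were higher. Libraries with the same number correlated between -0.027 and 0.26 after removal of group means, not all over 0.1, so the numbers were not taken as pairs. Not every library correlated best with its own number.

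Some named genes changed sign without having passed. Against the Cre control, Rps14 was at -0.0372 with quantile normalization and -0.0018 with the GC and length correction, and at -0.0169 to 0.1868 with 1 library left out. Rps7 was at -0.0258 and -0.0055, and at -0.0107 to 0.1692 with 1 library left out, where Rpl22l1 was at -0.0027 to 0.1888. Between the controls, Rpl5 was at 0.0100 with quantile normalization, and with 1 library left out it was at -0.0208 to 0.0222, Rps7 at -0.0059 to 0.1740 and Rps4l at -0.0697 to 0.0027. Depth is unknown, differences of weakly expressed rows are compressed by the transformation, and 3 libraries per group limit every value.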

Other observations

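Lists that stood in no comparison of the report gave these values for cKO against the floxed control. In this comparison 19.5% of all genes rose and 18.8% fell. Of 9 midbrain markers 2 rose and 3 fell, of 5 tested forebrain markers 0 rose and 1 fell, and of 6 tested hindbrain markers 0 rose and 4 fell, with a median of -0.64. The hindbrain median was -0.65 for the Cre control against the floxed control and 0.01 for the cKO against the Cre control. By limma 0 of the 6 passed in either of these comparisons. Of 7 endothelial markers 3 rose, of 8 microglia markers 1 rose, and of 3 tested neural crest glia markers 1 rose, with none of these falling.

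Copies of ribosomal protein genes outside the name rule were read as well. Rpl37rt was at 12.36, 12.36 and 12.36 in the floxed controls, 12.64, 12.42 and 12.45 in the Cre controls and 12.60, 12.55 and 12.64 in the cKO, a difference of 0.24 between cKO and floxed control (adjusted p = 0.00920 by limma). Rpl34-ps1, a row named as a pseudogene, was at 13.40, 13.45 and 13.39, at 13.76, 13.40 and 13.48, and at 13.64, 13.57 and 13.70, a difference of 0.22 (adjusted p = 0.0552). Both had their highest Cre control value in replicate 1. Rps27rt, which shares the most sequence with Rps27, was far lower, at 6.22 to 6.73 over the 9 libraries.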
